A study of Mus musculus with 8 samples.

Results

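The genes described here make, load and control MHC class I, the surface complex that shows peptides from inside a cell to CD8 T cells. They are the class I heavy chain genes H2-K1 and H2-D1, the light chain gene B2m, the transporter genes Tap1 and Tap2, the tapasin gene Tapbp, the immunoproteasome subunit genes Psmb8, Psmb9 and Psmb10, and the transactivator gene Nlrc5. Non-control probes that carried 1 of these 10 names in the scanner files were taken, which gave 17 of 56599 usable probes and at least 1 tested probe for each of the 10 genes.

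RNA came from CD11b+ brain cells of 7 day old male C57BL/6N mice, collected 24 h after saline in 4 tubes or lipopolysaccharide (LPS, from the outer membrane of Gram-negative bacteria) in another 4. No genetic change was given for either group, and the labels give neither the dose nor the route of LPS beyond the word systemic in the study's title. Cells were sorted with magnetic beads from pools of 2 brains, so each tube mixes 2 animals and p-values measure the spread between such pools. Each tube was read on 1 single-colour Agilent array, all 8 on 1 slide.

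In the class I pathway, the proteasome cuts cytosolic proteins into peptides, and interferon exchanges its 3 constitutive catalytic subunits for inducible ones. The TAP transporter, built from the Tap1 and Tap2 products, carries peptides into the endoplasmic reticulum, where tapasin and chaperones help them onto a heavy chain bound to beta-2 microglobulin. NLRC5 enters the nucleus and drives class I genes through conserved promoter elements, much as CIITA does for class II genes. Resting microglia show little class I at the surface, and interferon raises it.

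The upstream sequences of the 3 class I chain genes are shown because their promoters are the textbook case of shared elements. Whether these elements had a part in the changes was not tested. Each is printed 5′ to 3′ on the gene's strand, from RefSeq on GRCm38.p6, with motif matches in capitals. For H2-D1 (chr17:35262844-35263093, plus strand) and B2m (chr2:122147437-122147686, plus strand) these are the 250 bases before the start. RefSeq's promoter table gives H2-K1 2 starts 14 bases apart, and the one nearer the 5′ end was used. The annotated H2-K1 span reaches 272 bases beyond that start, so its upstream window lies inside the annotated gene, and only the 28 bases from its first to its second match are printed (chr17:34000430-34000457, minus strand).
H2-K1, 28 bases: GGGATTCCCcatctccacagTTTCACTT
H2-D1: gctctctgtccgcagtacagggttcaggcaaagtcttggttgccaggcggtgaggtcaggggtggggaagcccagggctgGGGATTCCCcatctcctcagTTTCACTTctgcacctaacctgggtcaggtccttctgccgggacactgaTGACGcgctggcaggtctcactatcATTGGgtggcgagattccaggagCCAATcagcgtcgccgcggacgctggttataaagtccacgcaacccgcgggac
B2m: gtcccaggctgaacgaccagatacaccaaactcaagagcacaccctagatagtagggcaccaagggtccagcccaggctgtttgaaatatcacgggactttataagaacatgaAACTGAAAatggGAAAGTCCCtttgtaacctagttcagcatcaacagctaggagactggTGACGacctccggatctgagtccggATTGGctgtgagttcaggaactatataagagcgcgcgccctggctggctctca

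A set of 5 short motifs was searched on both strands in these windows. AANNGAAA is the core bound by interferon regulatory factors, GGGATTCCC and GGGACTTTC are kappa B forms, TGACG is a CRE-like motif and CCAAT the CCAAT box. None of these 3 windows holds overlapping matches of different motifs. The upstream windows of H2-K1 and H2-D1, aligned with an offset of 60 bases, were identical at 166 of 190 positions, and the 28 bases printed for H2-K1 at 27. Both held, in the same order, a kappa B match, an interferon regulatory factor core, a CRE-like motif and a reversed CCAAT box. In H2-K1 the kappa B match began 110 bases before the start used and in H2-D1 170 bases before it, the same offset. B2m held a core, the other kappa B form, a CRE-like motif and a reversed CCAAT box in that order.

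Psmb9 and Tap1 are neighbours transcribed away from each other, and the stretch between their starts is shown because it lies upstream of both. It spans the 225 bases of chr17:34187331-34187555 on GRCm38.p6 and is printed on the plus strand, the strand of Tap1.
Psmb9 to Tap1: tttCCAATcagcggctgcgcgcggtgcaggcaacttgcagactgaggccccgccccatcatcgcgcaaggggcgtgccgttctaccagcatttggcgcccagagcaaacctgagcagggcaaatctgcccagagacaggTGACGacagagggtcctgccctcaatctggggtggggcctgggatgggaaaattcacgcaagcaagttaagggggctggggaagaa

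Upstream windows were held for 8 of the 10 genes, and those of Tap2, Nlrc5 and the counterpart Psmb7 were not used here. The interferon regulatory factor core was present in 3 of the 8 windows, those of H2-K1, H2-D1 and B2m, against 21.3% of 32841 RefSeq windows of this length. GGGATTCCC was present in H2-K1 and H2-D1, against 0.301% of all windows, and GGGACTTTC in B2m, against 0.289%. The CRE-like motif was in 5 of 8 windows against 17.8%, and the CCAAT box in 6 of 8 against 33.9%. The Tap1 and Psmb9 windows share the stretch printed above, so its CRE-like match and its CCAAT match each count for both genes. The H2-K1 and H2-D1 windows are close copies, so the 8 windows are not independent. No match of the 5 motifs lay in the Psmb8 and Psmb10 windows. Psmb5 and Psmb6, the constitutive counterparts of Psmb8 and Psmb9, held a CRE-like motif, and Psmb6 also a regulatory factor core. A match is a description of the letters in a window and is no evidence that a factor binds there.

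**Figure D1:**
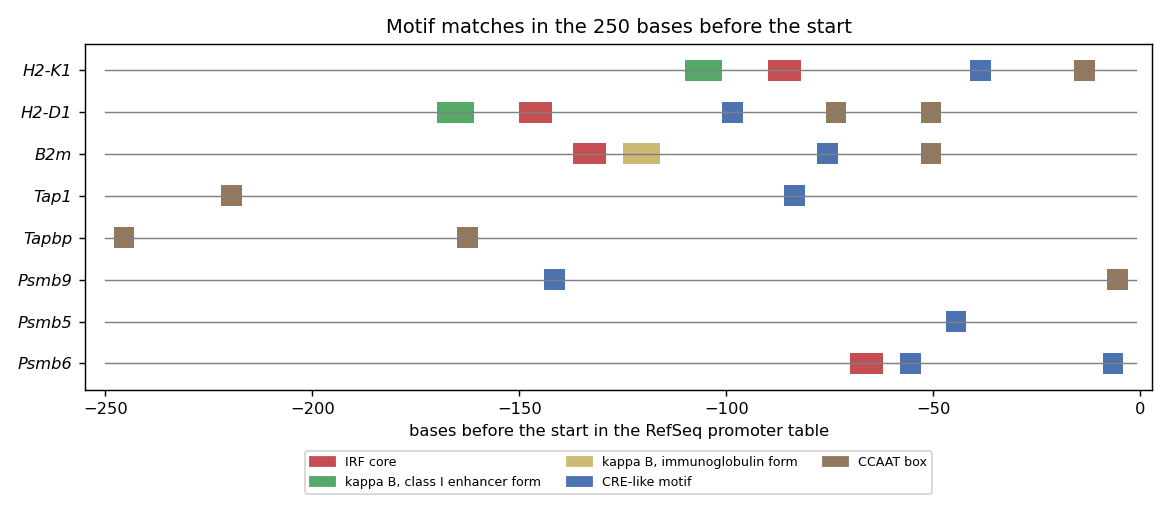
Position of each motif match (coloured bars, 5 motifs) in the 250 bases before the start in RefSeq's promoter table of 6 of the 8 genes with a window and of Psmb5 and Psmb6; the x axis is bases before the start, and each line is 1 gene. Psmb8 and Psmb10 have no line because they held no match, and H2-K1, H2-D1 and B2m show 4, 5 and 4 matches.

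All 10 genes were higher after LPS, with log2 changes of 0.52 to 2.88 and a median of 1.07, against a median of 0.02 over all 22509 genes tested. Nlrc5 rose most, Tap1 and the immunoproteasome genes followed near 1.4, and the heavy and light chains, Tap2 and tapasin rose by 0.52 to 0.73. In all, 10 of 10 passed the test, while 27.8% of all tested genes were called higher by the same test, so a call alone does not set the genes apart. The LPS arrays lay wholly above the saline arrays for 10 of 10 genes, against 25.8% of all tested genes, and the gap between the groups ran from 0.12 for H2-D1 to 2.21 for Nlrc5. Levels are given as log2 signal relative to the 75th percentile of the same array, changes are LPS minus saline ± standard error, n = 4 arrays a group. Adjusted p-values come from limma with Benjamini-Hochberg adjustment over all genes. Called means an adjusted p under 0.05, and SD follows the means below.

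**Figure D2:**
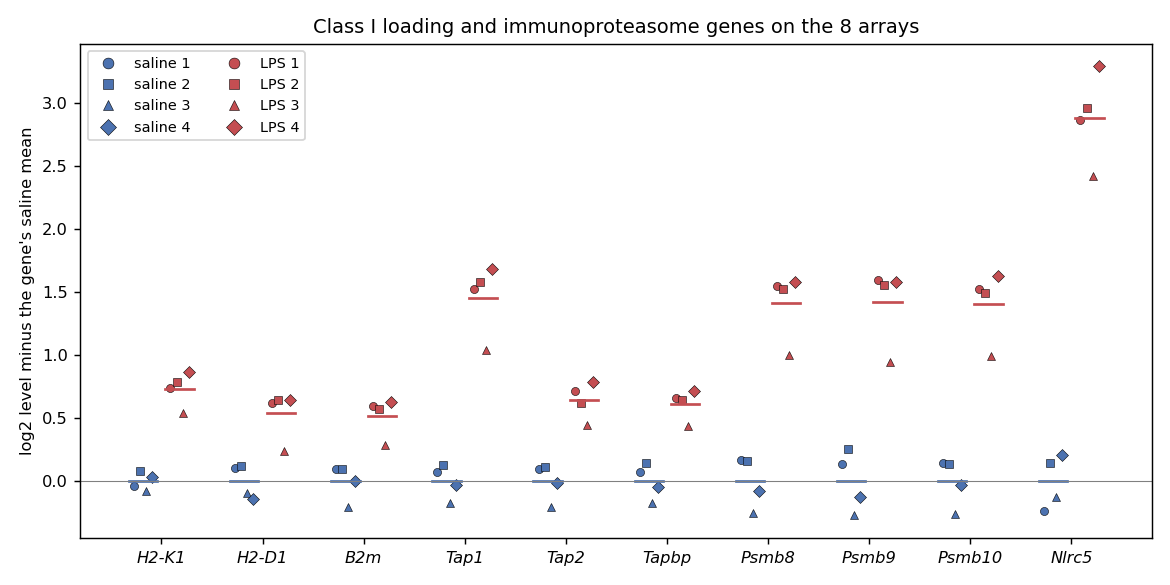
Log2 level of the 10 genes on each of the 8 arrays, minus the gene's own saline mean (y axis, log2), with blue saline points, red LPS points, a marker for each array number and a line at each group mean. Every gene has its 4 LPS points above its 4 saline points, and the LPS 3 triangle is the lowest LPS point in all 10 genes.

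The scaling sets how the whole table splits. Of the called genes, 56.4% were higher, or 72.8% when arrays were scaled to their median and 40.1% when the percentile came from probes well above background on every array. Those scalings put the median of all genes at 0.24 and -0.13. Each of the 10 genes stayed called higher under both.

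H2-K1 encodes one of the classical class I heavy chains. Its levels were 6.85, 6.97, 6.81 and 6.92 on the saline arrays and 7.62, 7.67, 7.43 and 7.75 after LPS, so the groups did not overlap. The means were 6.88 ± 0.07 and 7.62 ± 0.14, and it rose by 0.73 ± 0.09 (1.66-fold, adjusted p = 0.00083 in limma). H2-D1, the other classical heavy chain tested, read 5.30, 5.31, 5.10 and 5.05 under saline and 5.81, 5.84, 5.43 and 5.84 after LPS. The LPS 3 array alone stood low in its group, yet above every saline array. H2-D1 rose by 0.54 ± 0.12 (1.45-fold, adjusted p = 0.0068).

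B2m encodes beta-2 microglobulin, the light chain that every class I heavy chain needs to leave the endoplasmic reticulum. It read 7.44, 7.44, 7.14 and 7.35 under saline and 7.94, 7.92, 7.63 and 7.98 after LPS. It rose by 0.52 ± 0.11 (1.44-fold, adjusted p = 0.0053), the smallest change of the 10 genes. A further B2m probe, designed on the cDNA clone AK086184 and placed at chr2:121974599-121974658 (mm9) 3802 bases before the main probe, gave another picture. It read 2.29, 2.33, 2.51 and 2.32 under saline and 1.87, 2.24, 2.37 and 2.27 after LPS, with overlapping groups (-0.18 ± 0.12, adjusted p = 0.24). When the probes of a gene were averaged, B2m stood at 0.17 (adjusted p = 0.077) and was the only 1 of the 10 genes no longer called.

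The paired differences between chains were small. H2-K1 rose more than H2-D1 by 0.19 (95% interval -0.05 to 0.45), a difference that did not pass the exact two-sided permutation test (p = 0.0857, adjusted over 9 pairs 0.0964). H2-K1 rose more than B2m by 0.21 (interval 0.02 to 0.39, exact permutation p = 0.0286, adjusted p = 0.0368), or by 0.60 with averaged probes. The exact test permutes the 8 arrays over 70 assignments, and 0.0286 is the smallest p it can give.

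The class I genes are close copies of each other, and the probes of other genes nearest in sequence to the second H2-K1 probe are shown for that reason. Capitals mark the bases each probe shares with the H2-K1 probe, and in the H2-K1 line those shared by both others.
H2-K1 second probe: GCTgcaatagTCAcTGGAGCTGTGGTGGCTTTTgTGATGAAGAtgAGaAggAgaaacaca
Gm11127: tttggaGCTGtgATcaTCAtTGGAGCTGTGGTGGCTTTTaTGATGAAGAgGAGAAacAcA
H2-L: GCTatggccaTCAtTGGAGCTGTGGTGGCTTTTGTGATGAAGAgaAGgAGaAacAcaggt

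This second H2-K1 probe lies at chr17:34133984-34134043 (mm9) and shares 44 of 54 aligned bases with the Gm11127 probe and 41 of 60 with the H2-L probe, with a longest run of 29 shared bases with H2-L. It rose by 0.81 ± 0.11, against 0.81 ± 0.13 at the Gm11127 probe and 0.68 ± 0.10 at the H2-L probe. The H2-T23 probe, not printed, shares 39 of 54 aligned bases with it, also with a longest run of 29, and rose by 0.83 ± 0.12. Which transcripts those probes read in these mice was not tested. How much of each signal comes from the other genes was not tested, so values of class I probes with close copies are uncertain. The main H2-K1 probe had no other probe on the array with 30 or more shared bases.

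Tap1 encodes the first chain of the peptide transporter. It read 2.73, 2.79, 2.49 and 2.63 under saline and 4.19, 4.24, 3.70 and 4.35 after LPS, and rose by 1.46 ± 0.15 (2.75-fold, adjusted p = 0.00049). Its second probe, 3168 bases away, rose by 1.40 ± 0.12. Tap2, the partner chain, read 4.01, 4.02, 3.71 and 3.90 under saline and 4.63, 4.53, 4.36 and 4.70 after LPS. Its groups were apart by 0.34, and it rose by 0.64 ± 0.11 (1.56-fold, adjusted p = 0.0022). A second Tap2 probe was well above background on 1 saline and 3 LPS arrays, and gave 0.65 ± 0.20 with overlapping groups (adjusted p = 0.027).

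Tapbp encodes tapasin, which bridges the transporter and the empty heavy chain. It read 5.36, 5.43, 5.11 and 5.23 under saline and 5.94, 5.92, 5.72 and 6.00 after LPS, and rose by 0.61 ± 0.10 (1.53-fold, adjusted p = 0.0019). Its second probe rose by 0.58 ± 0.08. The 2 transporter chains did not change alike, although their products act as a pair. Tap1 rose more than Tap2 by 0.81 (interval 0.57 to 0.99) and more than Tapbp by 0.84 (interval 0.59 to 0.98), each with an exact permutation p of 0.0286 (adjusted 0.0368) and with all LPS differences above all saline ones.

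The 3 inducible catalytic subunits replace constitutive ones when immunoproteasomes assemble. Psmb8 read 3.63, 3.62, 3.21 and 3.39 under saline and 5.01, 4.99, 4.47 and 5.04 after LPS, a rise of 1.41 ± 0.16 (2.66-fold, adjusted p = 0.00067). Psmb9 read 2.79, 2.90, 2.38 and 2.53 under saline and 4.24, 4.21, 3.60 and 4.23 after LPS, a rise of 1.42 ± 0.18 (2.67-fold, adjusted p = 0.00096). LPS 3 stood low among the LPS arrays in both genes but above every saline array. Psmb10 read 5.29, 5.29, 4.89 and 5.12 under saline and 6.67, 6.64, 6.14 and 6.77 after LPS, a rise of 1.41 ± 0.16 (2.65-fold, adjusted p = 0.00069). The 3 changes lay between 1.41 and 1.42. A further Psmb9 probe was not well above background on any array and was not tested.

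At the probe that stands for each gene, each inducible subunit rose more than its constitutive counterpart, which also rose. Psmb5, which Psmb8 replaces, rose by 0.91 ± 0.13 and Psmb8 exceeded that by 0.50 (interval 0.32 to 0.61). Psmb6, which Psmb9 replaces, rose by 0.49 ± 0.12, and the difference was 0.92 (interval 0.55 to 1.13). Psmb7, which Psmb10 replaces, rose by 0.72 ± 0.12, and the difference was 0.69 (interval 0.50 to 1.07). All 3 had an exact permutation p of 0.0286 (adjusted 0.0368) and no overlap between the groups' within-array differences. That test measures the spread between arrays and not how far probes of a gene differ. The tested probes of Nlrc5 gave 2.88 and 1.45 and those of B2m 0.52 and -0.18. Those of H2-K1, Tap1, Tap2 and Tapbp lay closer together. Psmb6 gave 0.14 (adjusted p = 0.055) under quantile normalization. Tap1 and Psmb9, which share the upstream stretch printed earlier, differed by 0.04 (interval -0.17 to 0.23, exact permutation p = 0.571). Psmb8 and Psmb10, which do not share it, rose by 1.41 each, against 1.42 for Psmb9. A part of the stretch in these changes was not tested.

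**Figure D3:**
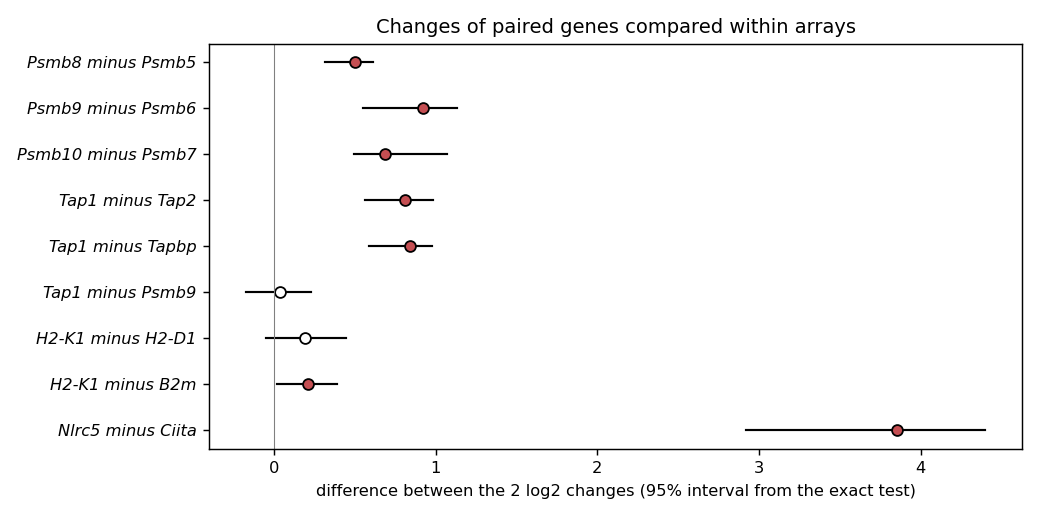
Difference between the log2 changes of 9 gene pairs (points) with 95% intervals from the exact permutation test over the 8 arrays (lines); filled points have an adjusted p under 0.05 over the 9 pairs. The 3 inducible minus constitutive subunits sit at 0.50, 0.92 and 0.69, while Tap1 minus Psmb9 and H2-K1 minus H2-D1 cross 0.

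Nlrc5 encodes the class I transactivator of the NLR family. It read -0.84, -0.46, -0.73 and -0.40 under saline and 2.26, 2.35, 1.81 and 2.68 after LPS. Every LPS array lay at least 2.21 above every saline array, and the gene rose by 2.88 ± 0.19 (7.38-fold, adjusted p = 0.00011). Its second probe, 20627 bases away in mm9, read -4.37, -4.25, -4.24 and -4.60 under saline and -2.94, -2.79, -3.20 and -2.73 after LPS. That probe rose by 1.45 ± 0.13; the mean of both probes gave 2.17. Ciita, the class II counterpart, fell by 0.97 ± 0.13 (adjusted p = 0.0011). The difference between the 2 changes was 3.85 (interval 2.92 to 4.4, exact permutation p = 0.0286, adjusted 0.0368).

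**Figure D4:**
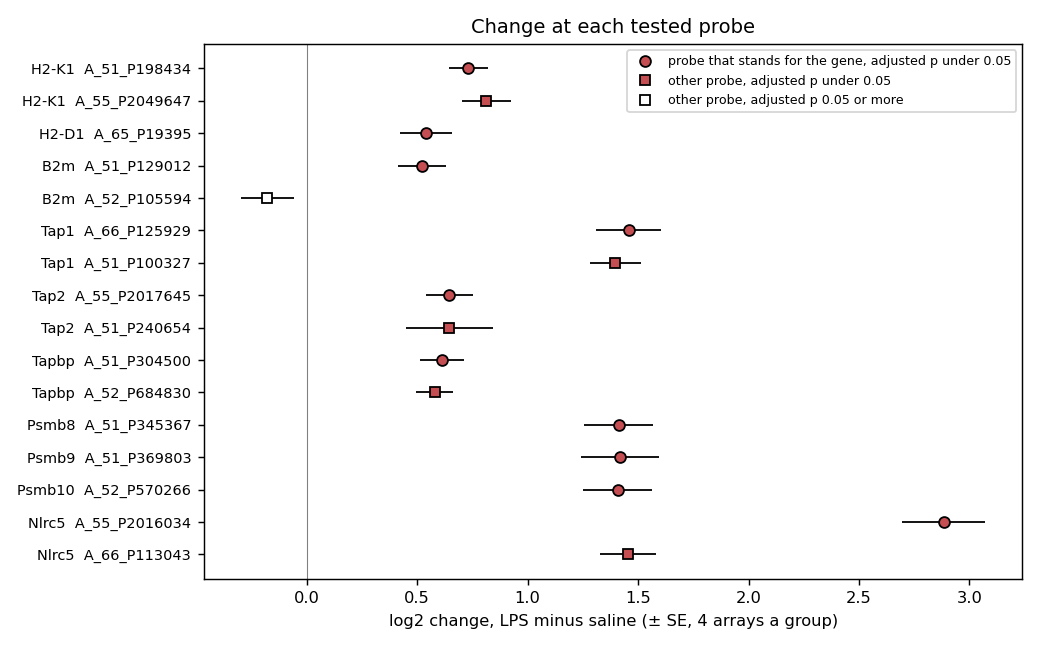
Log2 change of each of the 16 tested probes of the 10 genes (x axis, ± standard error, 4 arrays a group), with circles for the probe that stands for the gene and squares for its other probes. The B2m probe at -0.18 is the 1 open symbol, and the second Nlrc5 probe at 1.45 sits below the first at 2.88.

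Among the 16 tested probes 15 were called higher, against 25.7% of 35494 tested probes. The members lay on 3 chromosomes in GRCm38.p6, with 7 of 10 on chromosome 17, where the MHC region is. Psmb9 (chr17:34182030-34187330), Tap1 (chr17:34187556-34197225), Psmb8 (chr17:34198195-34201454) and Tap2 (chr17:34204479-34216321) follow each other there. Tapbp (chr17:33919478-33929290) and H2-K1 (chr17:33996012-34000619) lie before this cluster and H2-D1 (chr17:35263094-35267497) after it. Outside the region, B2m lies at chr2:122147687-122153082, Psmb10 at chr8:105935728-105938392 and Nlrc5 at chr8:94434335-94527272, so the increase was not limited to genes of the MHC region.

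The rest of the pathway was read from lists. Over all tested genes 27.8% were called higher and the median change was 0.02. Of 10 genes of peptide loading helpers 9 rose and 0 fell, with a median of 0.71. Calr, the chaperone calreticulin, rose by 0.93 ± 0.11, Pdia3, the disulfide isomerase of the loading complex, by 0.86 ± 0.13, and Erap1, which trims peptides, by 0.78 ± 0.12. Erap1 gave 0.32 (adjusted p = 0.076) with averaged probes. Of 9 tested proteasome activators and assembly factors 8 rose and 0 fell (median 0.66). Psme1, a subunit of the PA28 activator that interferon gamma induces, rose by 1.13 ± 0.15, Psmg4 by 0.74 ± 0.13 and Pomp, which helps core particles assemble, by 0.73 ± 0.13. Quantile normalization gave 0.59 for Calr, 0.56 for Pdia3 and 0.37 for Pomp, and the array's median signal as a covariate gave 0.44 for Psmg4, each still called. Psme2, the PA28 partner subunit, was not analysed here, and the near-identical copy Psme2b rose by 1.23 ± 0.15.

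The other core subunits rose too. All 3 of the constitutive catalytic subunits and 11 of 11 other 20S core subunits were called higher, with medians of 0.72 and 0.82. The share called higher over all tested genes was 27.8%, and their median was 0.02. Psma7, Psma6 and Psma5, structural subunits of the outer ring, rose by 0.95 ± 0.13, 0.94 ± 0.13 and 0.91 ± 0.14, and by 0.62, 0.60 and 0.60 under quantile normalization. No core subunit fell. At the probes that stand for the genes, the smallest inducible subunit change, 1.41, lay above the largest of the 14 other catalytic and core changes, which was 0.95.

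Of 15 transcription factors of class I genes 4 rose and 2 fell (median 0.10), against 27.8% of all tested genes called higher and 21.5% called lower. Stat2, which carries the type I interferon signal, rose by 1.05 ± 0.14, Irf9, its partner, by 0.81 ± 0.10 and Irf1, an interferon-induced activator, by 0.51 ± 0.11. Irf1 was not called under quantile normalization (0.22, adjusted p = 0.076) or with the median signal as a covariate (0.37, adjusted p = 0.069). Ciita fell as given above, and Nfya, a CCAAT-box subunit, fell by 0.29 ± 0.08 but was not called when arrays were scaled to their median (-0.07, adjusted p = 0.71). Quantile normalization called 2 factors higher and 5 lower, the covariate 2 higher, scaling to the array median 4 higher and 1 lower, and the percentile over bright probes 3 higher and 4 lower. Ciita gave -0.52 with normexp and an offset of 50, still called. Without LPS 2, 3 were called higher and 1 lower, and without LPS 3, 6 were called higher.

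Of 9 interferon ligands, receptors and kinases 3 rose and 0 fell (median 0.28), against 27.8% of all tested genes called higher. Ifng, the interferon gamma gene, rose by 2.79 ± 0.13 (adjusted p = 5.03e-05), Ifngr2, a chain of its receptor, by 0.63 ± 0.13 and Ifnar2 by 0.40 ± 0.08. The Ifng probe was dim, with a mean of -5.08 under saline and -2.3 after LPS, though well above background on every array. Ifng gave 0.72 with normexp and an offset of 50, and Ifngr2 and Ifnar2 gave 0.34 and 0.15 under quantile normalization, each still called. Ifnb1, the beta interferon gene, did not pass the test (0.28 ± 0.19, adjusted p = 0.24). Without LPS 3 the list had 7 genes called higher, and with the offset of 50 it had 5 higher and 1 lower. Genes called lower numbered 2 under quantile normalization and 1 with the percentile over bright probes.

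Other class I and related heavy chains, 17 of them tested, had 10 higher and 4 lower (median 0.65), against 27.8% and 21.5% of all tested genes, and 2 were lower when arrays were scaled to their median. H2-T24 rose by 1.03 ± 0.11, H2-T10 by 0.93 ± 0.15 and H2-T3 by 0.92 ± 0.16, or 0.28 with normexp and an offset of 50, still called. H2-Q1 was not well above background on any of the 4 LPS arrays, and its measured values were called lower there (adjusted p = 0.00024 in limma). As a bound, its saline mean was 1.51-fold above the lowest signal well above background on the LPS arrays. H2-Q1 was not called with normexp and an offset of 50 (-0.09, adjusted p = 0.21). H2-Q6 fell by 0.73 ± 0.11, and Mr1, which shows vitamin B metabolites to MAIT cells, fell by 0.51 ± 0.09 but not when arrays were scaled to their median (-0.30, adjusted p = 0.13). Many of these genes are near-identical copies of each other, so the values of single members are uncertain.

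**Figure D5:**
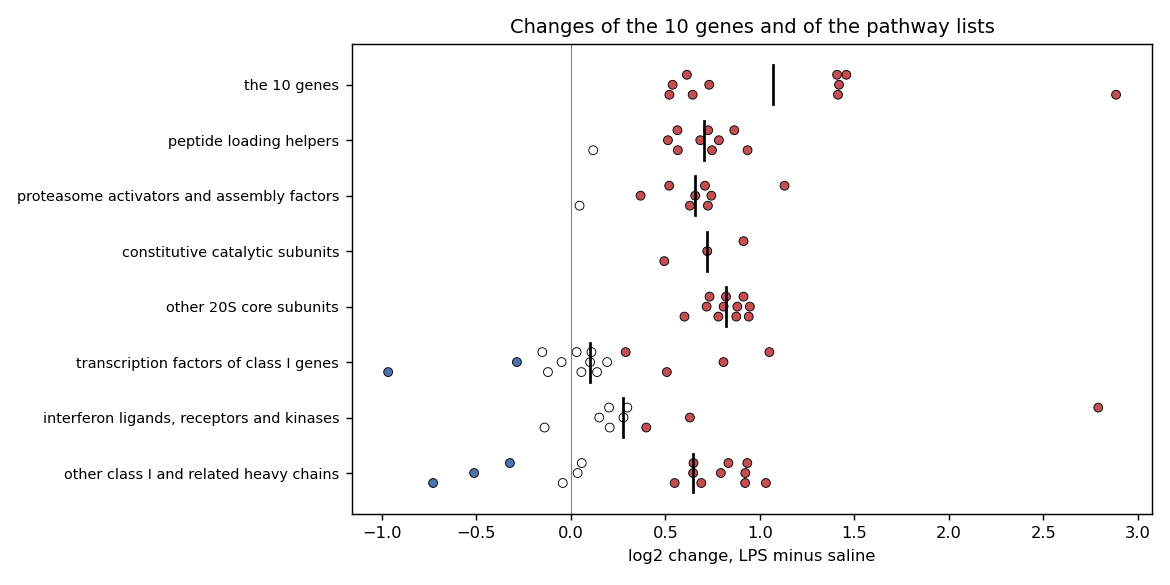
Log2 change of each of the 10 genes and of the genes in 7 pathway lists (x axis), with red points called higher, blue called lower, white not called, and a black line at each list's median. The other 20S core subunits are all red at 0.60 to 0.95, while the transcription factors have a median of 0.10 and reach from Ciita at -0.97 to Stat2 at 1.05; H2-Q1 is left out because it has only a bound.

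The genes whose 8 values followed the median profile of the 10 most closely (smallest root mean square difference, over 8 arrays) were Nadk at 0.030, Lrrc25 at 0.049, Bak1 at 0.050, Shisa5 at 0.054, Pgap2 at 0.056 and LOC547349 at 0.059. Their changes ran from 1.02 to 1.12, a range largely set by the choice, which used the same values. The 10 genes themselves lay farther from that median profile, from 0.25 for H2-K1 to 1.30 for Nlrc5. The likeness is thus to the median and not to any single member. RefSeq gives H2-K1 as a synonym of LOC547349.

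Markers of other cells moved with the treatment. Over all tested genes 27.8% were called higher and 21.5% lower, so a few calls in a list do not set a cell type apart. Microglia markers, the defining genes of the main cell type expected in this fraction, had the highest summed level, 1094 to 1286 under saline and 1007 to 1124 after LPS in units of the array's 75th percentile, and 5 of 8 were called lower. Monocyte markers summed to 12.6 to 16.6 under saline and 44.7 to 81.0 after LPS, with 5 of 6 called higher. Neutrophil markers summed to 70.01 to 161.6 and 167.9 to 297.6, with 3 of 8 higher (S100a8, S100a9 and Cxcr2). S100a9 and S100a8 were by far the brightest, with means of 7.44 and 5.93 after LPS. Ly6g, Mmp8 and Mmp9 were not called, nor were Camp (-0.89) and Ltf (-0.14), which went the other way. T and NK cell markers summed to 1.67 to 2.62 and 4.37 to 5.19, with 2 of 5 tested genes higher and 1, Klrb1c, lower (-0.68, adjusted p = 0.0095), and Cd3g, Cd8a and Ncr1 were not kept. Dendritic cell markers summed to 1.73 to 2.11 and 0.31 to 0.90, with 4 of 5 lower and Xcr1 not kept. B cell markers had 3 of 5 higher (14.7 to 20.8 and 18.1 to 21.6). No marker was called higher, and some were lower, for border macrophages (3 of 6 lower), astrocytes (5 of 6), oligodendrocyte lineage (5 of 7), neurons (1 of 5) and endothelium (5 of 6). Their part in the rise of the class I genes was not tested. In such bulk fractions, more cells of a type and more RNA per cell cannot be told apart.

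LPS 3 gave the lowest value of its group for all 10 genes, and saline 3 the lowest of its group for 8 of 10. The same arrays had the highest median processed signal of their groups, 17.3 against 11.7 to 13.8 on the other LPS arrays and 21.5 against 15.5 to 18.2 on the other saline arrays. With each array's median signal as a covariate 10 of 10 genes stayed called (0.31 to 2.69, largest adjusted p = 0.042), and without LPS 3 they gave 0.60 to 3.04. Saline and LPS arrays stood side by side in every slide column. All 40 within-column differences and all 20 within-row differences of the 10 genes were positive. Those signs follow from the LPS arrays lying wholly above the saline arrays, so they give no separate check of slide position. Quantile normalization lowered H2-K1 to 0.40, H2-D1 to 0.18, B2m to 0.22, Tap2 to 0.36 and Tapbp to 0.25, each still called.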

How the data were processed

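Total RNA (50 ng per sample) was labelled with Cy3 and hybridised to 1-colour Agilent arrays, per the labels. The authors' deposited scanner files hold background-subtracted signal intensity from Agilent Feature Extraction 12.0.3.1, per the submitters' processing notes. A deposited log2 value table by the authors was an alternative; its values tracked the scanner values at r = 1.00, and its column medians were -0.07 to 0.08. Spots of a probe were averaged, 6 probes without a usable spot were left out, and log2 signals were scaled to the 75th percentile of their array. A probe had to be well above background on 4 or more arrays (35494 were), and a gene was its brightest kept probe. Names came from RefSeq accessions for 35387 probes. Groups were compared with limma 3.58.1 in R 4.3.3, and checked on simulated data. The pathway lists, members and motifs were chosen with earlier results of these data known, and 1 list member is not reported here. Genes were named by a rule (all members and paired genes; up to 3 called genes a direction per list; the 6 nearest profiles). H2-Q1's bound sets the saline mean against the LPS arrays' lowest signal well above background. Figures were drawn with matplotlib 3.10.9.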

Additional observations from a re-analysis of the deposited data

Results flagged for a closer look

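Of 32 sets of 4 values (each tested probe in each group), 5 held an array far from the others. For a single set chance gives about 1 in 20, but the sets share the same arrays and are not independent. The count was therefore not tested against chance. The LPS 3 array was the lowest and set apart for H2-D1 (gap over range 0.925), Psmb8 (0.903) and Psmb9 (0.942). LPS 4 was the highest and set apart at the second Tapbp probe (0.914) and the lowest at the dim second Tap2 probe (0.864). All exceeded Dixon's 95% critical value for 4 values.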

How the results depend on the processing

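Over 22 alternatives (scaling, background, filter, probe choice, variance model, array weights, slide row or column as a block, median signal as a covariate, the deposited value table, and each array left out in turn), 219 of 220 values of the 10 genes kept their direction and call, and B2m lost its call with averaged probes (0.17, adjusted p = 0.077). The count of called genes ran from 7475 to 14974 against 11104. Leaving out each array in turn gave 0.45 to 0.60 for B2m, 0.49 to 0.64 for H2-D1 and 2.75 to 3.04 for Nlrc5. The H2-K1 minus B2m difference was 0.60 with averaged probes, and Nlrc5 minus Ciita was 3.06 so and 2.94 with normexp and an offset of 50. That offset left H2-Q1 at -0.09 (adjusted p = 0.21), and Nfya without LPS 2 was -0.26 (adjusted p = 0.053). The number of arrays limits precision, and dim probes, such as the second Tap2 probe, rest on few arrays above background. The labels number no replicates; with slide column as a block, which pairs neighbouring arrays, 13620 genes and 10 of the 10 genes were called.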
